A study of Mus musculus with 34 samples.

Results

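LXR, SMAD4 and RBPJ shared 3303 genomic loci in mouse Kupffer cells, the resident macrophages of the liver, out of 30317 loci bound by any of the 3 factors. A locus is a stretch of overlapping binding intervals, and an interval was counted only where the peaks of both replicate libraries of a factor overlapped by at least 1 bp. Loci bound by any of the factors in Kupffer cells or in bone marrow-derived macrophages (BMDM) numbered 74035. The members were chosen by overlap of peaks, so the overlap itself and the closeness of the peak centres are properties of the choice. A peak also had to pass thresholds on its signal and be found in both libraries, so strength is in part such a property too. Position, neighbouring genes, acetylation and binding in BMDM were not used in the choice.

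LXR is a pair of nuclear receptors, encoded by Nr1h3 and Nr1h2, that bind DNA with RXR and switch on cholesterol efflux and lipid genes when oxysterols are present. SMAD4 is the shared partner of the receptor-activated SMADs and carries TGF-beta and BMP signals to chromatin. RBPJ is the DNA-binding protein of the Notch pathway, a repressor until the cleaved Notch receptor and Mastermind join it. Signals of these 3 pathways from liver endothelial and stellate cells are known to shape Kupffer cell identity.

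Factor binding was measured by chromatin immunoprecipitation and sequencing (ChIP-seq) in untreated Clec4f-cre mice, a strain that expresses Cre from a Kupffer cell gene, with LXR from whole Kupffer cells and SMAD4 and RBPJ from Kupffer cell nuclei. H3K27ac, the histone acetylation found at promoters and enhancers in use, came from untreated Kupffer cells labelled C57BL/6J (the series' design text gives Clec4f-Cre/DTR mice), from repopulating liver macrophages (RLM) of Clec4f-cre/Rosa26iDTR mice 24 h after diphtheria toxin, and from Ly6C-high blood monocytes of untreated C57BL/6J mice. The toxin receptor follows Clec4f, so the toxin removes Kupffer cells and the RLM are the cells that refill the niche. BMDM were grown from C57BL/6J mice, for 4 days without treatment (SMAD4, RBPJ) or for 7 days with the LXR agonist GW3965 for 18 h (LXR). Ages and sexes of the animals are not given in the sources used here. Each group holds 2 libraries, and nothing says that they came from separate animals, so spreads and p-values measure the difference between these libraries, which may be technical.

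The Kupffer cell factor libraries held 18.0 to 56.3 M tags, and the H3K27ac libraries 7.37 to 19.5 M tags in regions. The RBPJ lists are much the weaker ones. Only 24.2% and 19.8% of the RBPJ peaks reached 8-fold over input, against 84.7% and 74.9% of the LXR peaks and 89.5% and 96.6% of the SMAD4 peaks, and RBPJ peaks held 1.01% and 0.76% of the tags of their libraries. SMAD4 replicate 2 and RBPJ replicate 1 were called against the same input, and the name of the input of LXR replicate 2 states a NASH diet where the ChIP library states a control diet. H3K27ac summed over the regions of 16 Kupffer cell markers was 2910 and 3525 CPM (tag counts scaled to the size of the library) in Kupffer cells, against 803 and 795 CPM in RLM and 365 and 331 CPM in monocytes. Of 8 hepatocyte markers 4, Hnf4a among them, had no region, and the list summed to 39.8 and 45.5 CPM in Kupffer cells, against 17.3 and 20.2 CPM in RLM and 15.5 and 17.0 CPM in monocytes, with Ttr giving 29.8 and 35.5 CPM in Kupffer cells. Endothelial markers summed to 167 and 185 CPM in Kupffer cells, against 102 and 93.4 CPM in RLM and 84.9 and 77.0 CPM in monocytes. Of the 8, 2 (Tie1 and Dll4) had no region. Pecam1 gave 79.3 and 99.8 CPM and Stab2 64.4 and 64.4 CPM in Kupffer cells. Stab2, Pecam1 and Cldn5 were higher in Kupffer cells than in both other groups, and Kdr, Lyve1 and Clec4g were lower. Kdr had 7.03 and 6.98 CPM in Kupffer cells, against 15.9 and 17.8 CPM in RLM. Stellate cell markers summed to 121 and 169 CPM in Kupffer cells, against 82.0 and 65.8 CPM in RLM and 65.1 and 95.5 CPM in monocytes. Of the 7, 4 had no region, and Hgf gave 104 and 152 CPM in Kupffer cells. Monocyte markers summed to 195 and 214 CPM in Kupffer cells, against 470 and 457 CPM in RLM and 619 and 608 CPM in monocytes. The part of these other cells in the results was not tested, and in bulk samples fewer cells of a type and less of a mark per cell cannot be told apart.

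Some shared loci lie on promoters, and 4 are shown: of the 15 strongest shared loci and the up to 5 strongest of each gene list described below, these are the ones that hold the start of a promoter matched in the RefSeq table used. The sequences are RefSeq promoters of build GRCm38.p6, the assembly that mm10 names, 250 bases before to 50 after the start, with every match to 8 short motifs in capitals. Cltc, for clathrin heavy chain, is on chr11:86757518-86757817, minus strand, with 243 bases inside the shared locus. Hjurp, for a chaperone of the centromeric histone, is on chr1:88277530-88277829, minus strand, with 208 bases inside. Rbpj itself is on chr5:53590096-53590395, plus strand, with 128 bases inside. Notch2, a Notch receptor, is on chr3:98013288-98013587, plus strand, with 270 bases inside.
Cltc: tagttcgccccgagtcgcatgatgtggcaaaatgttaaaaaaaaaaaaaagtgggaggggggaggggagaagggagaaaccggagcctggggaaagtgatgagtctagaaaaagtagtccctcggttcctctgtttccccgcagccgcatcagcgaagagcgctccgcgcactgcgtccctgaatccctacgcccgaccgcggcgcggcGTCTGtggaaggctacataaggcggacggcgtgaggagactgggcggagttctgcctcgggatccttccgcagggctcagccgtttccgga
Hjurp: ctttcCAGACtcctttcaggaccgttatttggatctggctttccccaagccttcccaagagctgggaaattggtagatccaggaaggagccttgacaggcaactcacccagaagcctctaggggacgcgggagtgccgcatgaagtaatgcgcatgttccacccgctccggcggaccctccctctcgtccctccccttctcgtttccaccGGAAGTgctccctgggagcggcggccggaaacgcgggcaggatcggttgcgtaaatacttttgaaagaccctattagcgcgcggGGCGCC
Rbpj: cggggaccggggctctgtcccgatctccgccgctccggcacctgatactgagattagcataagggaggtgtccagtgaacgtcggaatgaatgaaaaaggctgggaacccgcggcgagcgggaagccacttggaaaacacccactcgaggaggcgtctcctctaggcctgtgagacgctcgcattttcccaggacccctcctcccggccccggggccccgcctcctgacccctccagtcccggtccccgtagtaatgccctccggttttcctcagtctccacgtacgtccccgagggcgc
Notch2: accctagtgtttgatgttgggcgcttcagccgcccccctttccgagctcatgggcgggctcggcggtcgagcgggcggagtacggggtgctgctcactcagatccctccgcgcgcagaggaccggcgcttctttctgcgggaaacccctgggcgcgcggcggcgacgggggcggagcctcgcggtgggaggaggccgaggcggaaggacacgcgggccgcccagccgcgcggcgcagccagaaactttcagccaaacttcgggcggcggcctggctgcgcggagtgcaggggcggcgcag
Strands of matches are relative to the sequences as shown. The Cltc promoter held 1 match, the SMAD core CAGAC on the minus strand. The Hjurp promoter held 3 on the plus strand: the SMAD core, GGAAGT (the letters searched for PU.1) and the GC-rich SMAD motif GGCGCC. That SMAD core lies in the part of the Hjurp promoter outside the shared locus. The Rbpj and Notch2 promoters held none of the 8, the RBPJ letters among them.

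Loci of RBPJ were held by all 3 factors more often than loci of LXR or SMAD4. Of 5443 RBPJ loci, 60.7% were held by all 3 factors and 13.5% by RBPJ alone; 74.6% carried LXR and 72.5% carried SMAD4. Of 23111 LXR loci, 14.3% were held by all 3 and 44.3% by LXR alone, and of 18590 SMAD4 loci 17.8% and 31.3%. LXR and SMAD4 met most often: 52.4% of LXR loci carried SMAD4, and 65.2% of SMAD4 loci carried LXR. Pairs that include RBPJ without the other factor were rare, with 758 loci of LXR and RBPJ and 645 of SMAD4 and RBPJ, against 8818 of LXR and SMAD4.

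**Figure D1:**
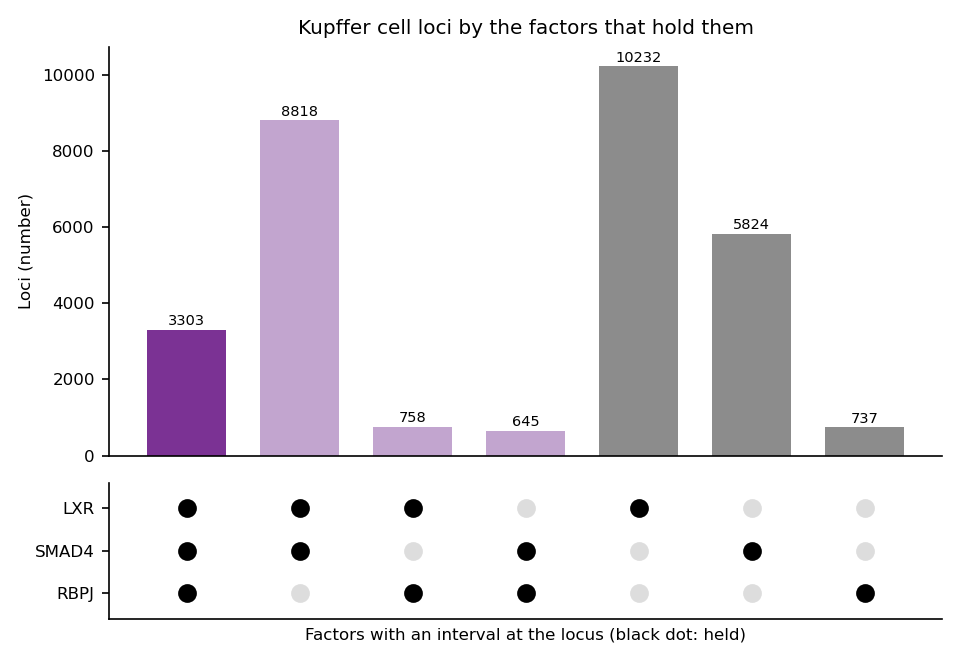
Number of Kupffer cell loci in each of the 7 combinations of factors; black dots below a bar mark the factors that hold the loci. All 3 factors held 3303 loci, LXR with SMAD4 8818, LXR alone 10232, SMAD4 alone 5824 and RBPJ alone 737.

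These shares rest on unequal list lengths of 23112 LXR, 18593 SMAD4 and 5444 RBPJ intervals. With the 5000 strongest intervals of each factor, a setting chosen after seeing the data, 1108 loci were shared by all 3. Lists of equal length fix the same share for each factor, here 22.2%, so it cannot rank the factors. In these lists, 46.0% of LXR loci carried SMAD4, 33.2% of LXR loci carried RBPJ and 37.8% of SMAD4 loci carried RBPJ. The border between pairs and triples was also soft. Of the 8818 LXR and SMAD4 loci without a reproducible RBPJ interval, 4105 (46.6%) had an RBPJ peak in 1 library and 4673 in neither. Of the SMAD4 and RBPJ loci 78.3% had an LXR peak in 1 library, and of the LXR and RBPJ loci 70.8% had a SMAD4 peak in 1. A fold over input of at least 8 left 518 RBPJ intervals and 316 shared loci, and each RBPJ library taken alone gave 5883 (replicate 1) and 4910 (replicate 2). Those were 43.9% and 43.5% of the RBPJ intervals, against 60.7% with both libraries.

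Within the 3303 shared loci the peaks sat almost on top of each other. The median distance between centres was 27 bp for LXR and RBPJ, 31 bp for LXR and SMAD4 and 34 bp for SMAD4 and RBPJ. In the pairwise sets it was 29, 33 and 33 bp in the same order. Since the choice required overlap and the peaks are 149 to 203 bp wide, the distances describe the loci and test nothing.

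The shared loci were the strong ones of each factor. The median normalized tag count of LXR (tags per 10 M in the peak, the authors' value) was 55.2 in replicate 1 and 24.7 in replicate 2 at loci with 3 factors, 39.9 and 18.8 at loci with 2, and 25.3 and 13.7 where LXR was alone. For SMAD4 it was 39.1 and 59.9 with 3 factors, 26.9 and 42.7 with 2, and 19.0 and 34.4 alone. For RBPJ it was 9.66 and 8.33 with 3 factors, 7.60 and 6.81 with 2, and 6.16 and 5.49 alone. Shared loci thus exceeded lone ones 2.18- and 1.80-fold for LXR, 2.06- and 1.74-fold for SMAD4 and 1.57- and 1.52-fold for RBPJ, in both replicates of each factor. With 2 libraries a group the smallest exact p is 0.333, so none is given.

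**Figure D2:**
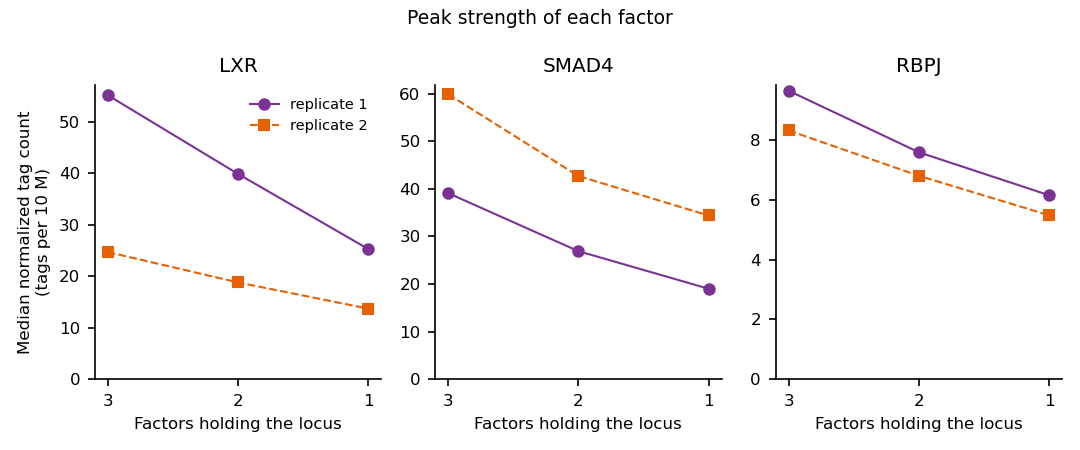
Median normalized tag count (tags per 10 M) of the LXR, SMAD4 and RBPJ peaks at loci held by 3, 2 or 1 factors, with 1 line per replicate library. Every line falls with fewer factors: replicate 1 reads 55.2, 39.9 and 25.3 for LXR, 39.1, 26.9 and 19.0 for SMAD4, and 9.66, 7.60 and 6.16 for RBPJ.

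The interquartile ranges of shared and lone loci overlapped except in LXR replicate 1. There they ran 37.8 to 87.1 at shared loci and 17.5 to 37.1 at loci with LXR alone, and in LXR replicate 2 they ran 16.2 to 39.2 and 10.1 to 19.4. In SMAD4 replicate 2 they ran 40.5 to 89.8 and 25.5 to 46.6, and in RBPJ replicate 1 they ran 7.60 to 11.9 and 4.72 to 7.81. The input signal that the deposited fold implies was level for LXR, with medians of 1.53 and 1.17 at shared loci and 1.53 and 1.17 at lone ones. For RBPJ it was higher at shared loci (1.36 and 1.37) than at RBPJ-only loci (1.02 and 0.919), and for SMAD4 in replicate 1 (1.20 against 0.619) but not in replicate 2 (1.32 against 1.32). The part of the input in the tag counts was not tested; the RBPJ fold over input, which divides it out, had medians of 6.66 and 6.08 at shared loci and 5.92 and 5.65 at lone ones.

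Within each factor, stronger loci were more often shared. A peak had to pass thresholds on its signal in both libraries to count. The part of these thresholds in this order, and in the medians above, was not tested. In the strongest quartile of RBPJ 82.4% of loci carried both other factors and 3.09% neither, against 33.0% and 32.5% in the weakest quartile. In the strongest quartile of LXR 29.5% carried both and 18.4% neither, against 3.46% and 71.4% in the weakest. In that of SMAD4 35.5% carried both and 13.2% neither, against 6.35% and 49.8%. Loci of LXR and SMAD4 showed the same order by RBPJ: with RBPJ in both libraries, in 1 and in neither, the median LXR count in replicate 1 was 55.2, 44.5 and 37.1, and the median SMAD4 count in replicate 1 was 39.1, 30.1 and 24.3.

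Shared loci lay nearer to genes. Of the loci with 3 factors 41.5% lay within 3 kb of the start of a protein-coding gene, against 38.0% with 2 factors, 33.7% with 1 and 36.0% of all loci. The median distance was 7087 bp with 3 factors, against 11466 bp with 1. The order did not hold for each set: SMAD4 with RBPJ had 54.9% within 3 kb and SMAD4 alone 46.2%, above the shared loci, while LXR alone had 27% and RBPJ alone 28.4%.

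Promoters with their start in a shared locus held GGAAGT, the letters searched for PU.1, more often than promoters at large. So did promoters in loci with fewer factors. The letters do not show which factor binds them, and PU.1 was not profiled. Of 21238 RefSeq promoters of 300 bases, 1029 had their start in a shared locus. GGAAGT stood on either strand in 36.2% of them, against 24.8% of all promoters and 20.2% of promoters with no factor. The GC-rich SMAD motif GGCGCC stood in 24.4%, against 15.3% of all, 27.3% at loci of LXR with SMAD4, 27.7% at SMAD4 alone and 34.8% at SMAD4 with RBPJ. The RBPJ motif GTGGGAA stood in 5.25%, against 6.07% of all, the LXR core AGGTCA in 11.6%, against 14.7%, the SMAD core CAGAC in 45.4%, against 48.4%, and the AP-1 motif TGANTCA in 4.47%, against 6.99%. The LXR element DR4, a direct repeat of that core, was in no promoter of either group, and the SMAD palindrome GTCTAGAC was in 0.389%, against 0.226% of all. Median GC was 63.0% in promoters at shared loci, against 56.3% in all, 63.0% at LXR with SMAD4 and 65.3% at SMAD4 alone, and the median number of CpG dinucleotides was 25, against 13, 24 and 26, which the motif shares were not adjusted for. Promoters of loci with LXR alone held GGAAGT as often (37.8%), and those with SMAD4 alone less often (28.7%). Distal loci were not searched.

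Nearly all shared loci overlapped regions listed for Kupffer cells among those in which H3K27ac was counted. Such a listing does not by itself give the level of acetylation. The overlapping 2000-bp region with the nearest centre was listed for Kupffer cells at 98.4% of loci with 3 factors, 95.4% with 2 and 82.8% with 1. Of all tested regions 71.8% were so listed. A region listed for Kupffer cells, RLM or monocytes overlapped 99.8%, 97.9% and 89.1%. Median H3K27ac was 17.4 and 19.5 CPM in the 2 Kupffer cell libraries at loci with 3 factors, 13.9 and 15.4 CPM with 2, and 8.82 and 9.27 CPM with 1. The tested regions as a whole had medians of 4.53 and 4.4 CPM, and the 23249 regions from the Kupffer cell list without a factor 2.38 and 2.11 CPM. Loci with 3 factors thus stood 2.04 ± 0.0952-fold (SD, n = 2 libraries) above loci with 1. Region centres lay a median of 31 bp from the locus centre, so these windows are centred on binding sites.

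RLM and monocytes, in which the factors were not profiled, had the same order of H3K27ac. The ratio of loci with 3 factors to loci with 1 was 1.97 and 2.11 in Kupffer cells, against 2.27 and 2.21 in RLM and 2.30 and 2.42 in monocytes. Loci with 3 factors that were bound in Kupffer cells had median H3K27ac of 9.85 and 9.65 CPM in RLM and 10.1 and 10.4 CPM in monocytes. Their regions were rarely listed for Kupffer cells alone: 3.88% with 3 factors, against 10.6% with 2, 17.2% with 1 and 21.4% with LXR alone.

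The difference was larger away from gene starts. More than 3 kb from a start, loci with 3 factors had 13.4 and 15.4 CPM in Kupffer cells, against 5.37 and 5.40 CPM with 1 factor, a ratio of 2.49 and 2.86. In RLM the distal ratio was 2.10 and 2.08, and in monocytes 2.45 and 2.69. Within 3 kb the ratio was 1.24 and 1.29 in Kupffer cells, against 1.43 and 1.41 in RLM and 1.39 and 1.38 in monocytes. Distal RBPJ loci without LXR and SMAD4 were the lowest, at 2.03 and 1.73 CPM.

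**Figure D3:**
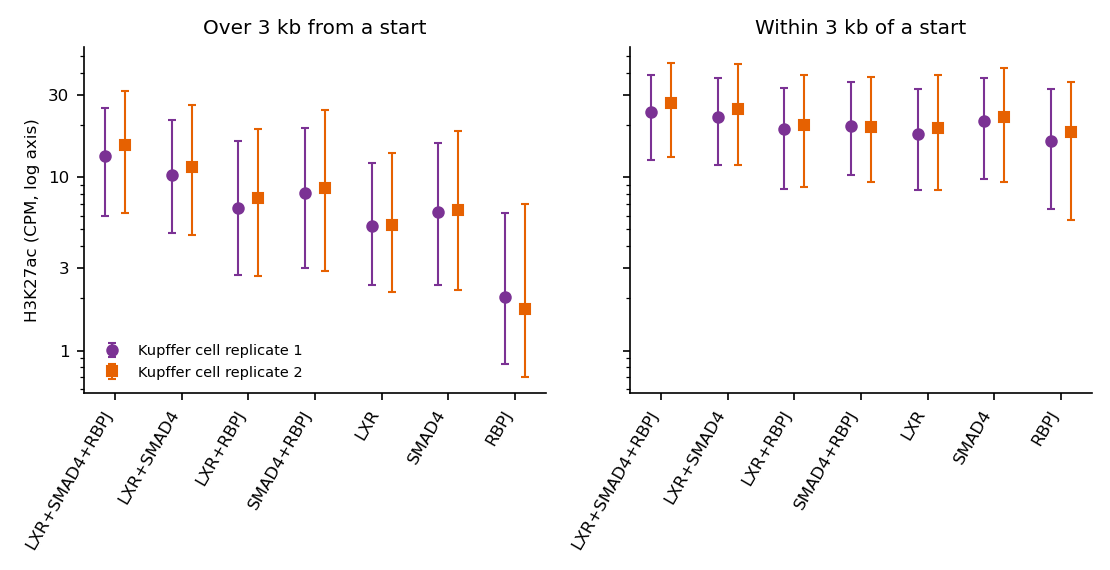
H3K27ac (CPM, log axis) at loci of the 7 combinations over 3 kb from a gene start (left) and within 3 kb (right); points are medians over loci and bars the interquartile range, for each Kupffer cell library. Distal medians are 13.4 and 15.4 CPM with all 3 factors and 2.03 and 1.73 CPM with RBPJ alone, while proximal medians stay between 16.2 and 26.7 CPM.

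Within strength quartiles the ratio of loci with 3 factors to lone loci differed by factor. Among all loci it was 0.881 to 1.18 in the SMAD4 quartiles, 1.26 to 1.76 in the LXR quartiles and 1.37 to 4.98 in the RBPJ quartiles, against the unmatched 1.97 and 2.11. Among distal loci the SMAD4 quartiles gave 1.10 to 1.69 and the LXR quartiles 1.04 to 1.37, with the highest LXR ratios in the strongest quartile (17.6 and 21.2 CPM with 3 factors, against 13.6 and 15.4 CPM with LXR alone). The distal RBPJ quartiles gave 2.39 to 8.01, with as few as 22 lone RBPJ loci in a quartile. Distal loci of LXR with 1 other factor had 16.7 and 19.5 CPM in that quartile. In the weakest LXR quartile they had 4.17 and 4.22 CPM, above the 3.22 and 3.11 CPM of loci with 3 factors, and the next quartiles up had the same order. Within 3 kb of a start the ratio was 0.777 to 1.01 in the SMAD4 quartiles and 0.840 to 1.20 in the LXR quartiles. In the RBPJ quartiles it was 0.994 to 1.44, and the unmatched proximal ratios were 1.24 and 1.29.

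**Figure D4:**
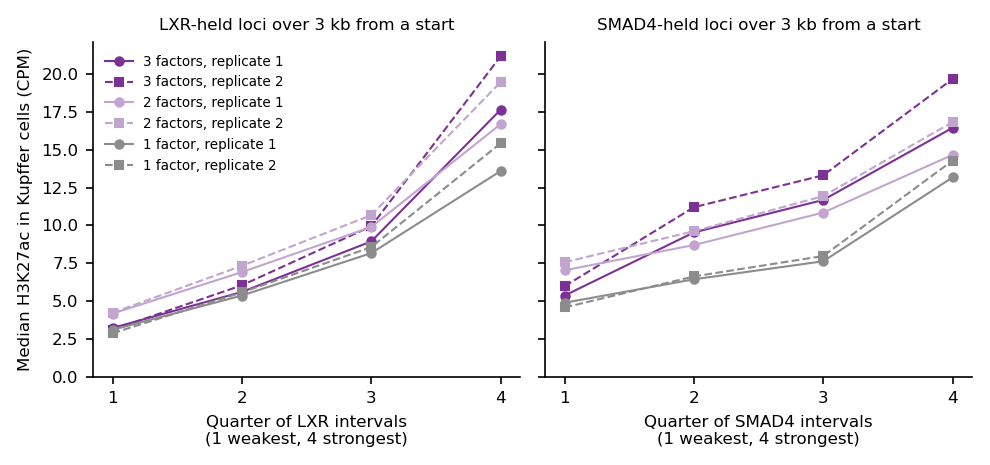
Median H3K27ac in Kupffer cells (CPM) at distal loci, by strength quartile of LXR (left) and SMAD4 (right), for loci held by 3, 2 or 1 factors and each library. In the strongest LXR quartile loci with 3 factors had 17.6 and 21.2 CPM and loci with LXR alone 13.6 and 15.4 CPM; in the weakest they had 3.22 and 3.11 CPM, against 3.1 and 2.87 CPM.

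Kupffer cells were then compared with monocytes and with RLM, region by region, with edgeR's quasi-likelihood test over all 80982 tested regions (called: Benjamini-Hochberg adjusted p under 0.05 and at least 2-fold). Against monocytes, 1198 of 3297 regions at loci with 3 factors (36.3%) were called higher in Kupffer cells, where 24.9% of all tested regions were, and 298 (9.04%) were called lower, where 17.7% were. Loci with 2 factors gave 39.8% and 8.62%, and loci with 1 gave 35.3% and 10.8%, so the share called higher did not climb with the number of factors. The median log2 difference was 0.48 with 3 factors, 0.60 with 2 and 0.45 with 1, against -0.06 over all tested regions.

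Against RLM, 1238 of the 3297 (37.5%) were called higher, where 22.3% of all tested regions were, and 114 (3.46%) lower, where 13.9% were. Loci with 2 factors gave 38.8% and 3.15%, and loci with 1 gave 31.7% and 5.67%. The medians were 0.65, 0.67 and 0.46 in the same order, against -0.04 over all. The comparisons share the Kupffer cell libraries.

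The calls lay away from promoters. Of the distal loci with 3 factors 49.5% were called higher than in monocytes, against 52.1% of distal loci with 2 factors, 44.3% with 1 and 28.3% of all distal regions; of the proximal ones 17.8% were, against 20.3%, 20.0% and 18.3%. Against RLM the distal shares were 53.8% with 3 factors, 53.2% with 2, 40.6% with 1 and 26.4% of all, and the proximal ones 14.6%, 16.0%, 16.2% and 14.3%. By set, the distal share against monocytes was 54.1% for LXR with SMAD4, 48.3% for LXR alone, 41.9% for LXR with RBPJ, 39.1% for SMAD4 alone, 30.3% for SMAD4 with RBPJ and 21.6% for RBPJ alone. Loci that carried LXR lay above their counterparts without it, and RBPJ alone lay below the distal background.

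The shared loci were the ones most often bound in BMDM too. They were also stronger, as given above, and longer, with a median of 270 bp, against 258 bp with 2 factors and 215 bp with 1. The part of strength and length in the BMDM shares was not tested. Of loci with 3 factors in Kupffer cells, 65.0% had a reproducible BMDM interval of LXR, against 51.2% of LXR loci with 2 factors and 34.6% with LXR alone. For SMAD4 the shares were 60.4%, 44.8% and 33.3%, and for RBPJ 88.9%, 80.5% and 71.8%. All 3 factors were bound in BMDM at 1486 of the 3303 loci (45.0%), 2 at 1034, 1 at 553 and none at 230 (6.96%). The BMDM lists held 20354 LXR, 16969 SMAD4 and 62698 RBPJ intervals, so the levels cannot be compared between factors, and the LXR agonist was used in BMDM only.

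The 15 shared loci in which the weakest of the 3 factors ranked highest within its own list were nearest to Axl, Cltc, Egr3, Ndst1, Vasp, Coro6, Dapk1, Enpp5, Ccdc186, Hjurp, Clptm1l, Cebpb, Mmp9, Junb and Nfkbia. Of these, 5 lay within 3 kb of the start. H3K27ac was called higher in Kupffer cells at 7 against monocytes and at 7 against RLM, and lower at none. Of all tested regions 24.9% and 22.3% were called higher in those comparisons, and of all regions at shared loci 36.3% and 37.5%; with 15 loci no more is read from the count. Coro6 was short of 2-fold in both comparisons (0.96 and 0.88) and passed without Kupffer cell replicate 1 (1.23 and 1.15), and against RLM without RLM replicate 2 (1.28). Nearness does not show that a locus acts on a gene.

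The top locus lay 11824 bp into Axl (chr7:25776785-25777034, intron), a receptor for the uptake of dying cells. LXR gave 253 and 105 normalized tags, SMAD4 385 and 332, and RBPJ 31.8 and 29.7. H3K27ac was 7.63 and 6.10 CPM in Kupffer cells, against 2.89 and 2.03 CPM in RLM and 3.22 and 2.81 CPM in monocytes, a log2 difference of 1.48 ± 0.40 against RLM (SE, edgeR adjusted p = 0.00158) and 1.17 ± 0.37 against monocytes (adjusted p = 0.00616). Both Kupffer cell libraries lay above all others, but without Kupffer cell replicate 1 the call against monocytes was lost (adjusted p = 0.0847).

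At Vasp, an actin regulator, the locus lay in an intron (chr7:19265995-19266229). LXR gave 212 and 102, SMAD4 398 and 389, and RBPJ 21.8 and 14.2 normalized tags. H3K27ac was 32.4 and 40.1 CPM in Kupffer cells, against 8.41 and 10.7 CPM in RLM and 4.79 and 2.89 CPM in monocytes, a log2 difference of 1.92 ± 0.27 against RLM (adjusted p = 9.32e-09) and 3.24 ± 0.29 against monocytes (adjusted p = 4.00e-16). The 3 groups did not overlap. Dapk1, a death-associated kinase, and Egr3, an immediate-early transcription factor, had the same direction in both comparisons, with log2 differences of 1.45 and 1.79 against RLM and 1.5 and 1.42 against monocytes. Ndst1, an enzyme of heparan sulfate synthesis, had 5 shared loci, and its strongest gave 1.68 against RLM and 3.43 against monocytes. At Mmp9, for a matrix protease, 5159 bp upstream, the values were 1.38 and 2.03; the call against RLM was lost without Kupffer cell replicate 1 (adjusted p = 0.0728) and without RLM replicate 2 (adjusted p = 0.111).

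Other loci of the 15 were as strongly bound and not higher in Kupffer cells. The Cltc promoter (chr11:86757470-86757760) had 199 and 578 LXR tags, 195 and 286 SMAD4 tags and 22.6 and 18.2 RBPJ tags. Its H3K27ac was 85.5 and 127 CPM in Kupffer cells, against 125 and 122 CPM in RLM and 152 and 160 CPM in monocytes, log2 differences of -0.21 ± 0.19 (adjusted p = 0.365) and -0.55 ± 0.19 (adjusted p = 0.0122), under the 2-fold threshold. LXR was higher in replicate 2 here, which was so at 13.1% of proximal and 5.82% of distal LXR loci. Hjurp, with the strongest RBPJ peaks of the 15 (43.3 and 38.2), had 65.3 and 65.9 CPM in Kupffer cells, against 59.1 and 64.7 CPM in RLM and 86.6 and 107 CPM in monocytes. The locus 25167 bp from Enpp5 had 23.0 and 19.9 RBPJ tags and hardly any acetylation, at 1.79 and 1.23 CPM in Kupffer cells, against 2.23 and 1.52 CPM in RLM and 1.57 and 1.32 CPM in monocytes.

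Cebpb and Junb encode macrophage transcription factors, and Nfkbia the inhibitor of NF-kB. The Cebpb locus, 65168 bp from the start, had 45.7 and 46.6 CPM in Kupffer cells, against 42.2 and 44.8 CPM in RLM and 60.7 and 73.4 CPM in monocytes, and was not called in either comparison. Junb was not called either (0.61 ± 0.20 against RLM and -0.42 ± 0.19 against monocytes). Nfkbia was called against monocytes only (2.03 ± 0.21, adjusted p = 1.44e-13; 0.21 ± 0.20 against RLM, adjusted p = 0.380). Ccdc186 was called against RLM only (2.21 ± 0.27, adjusted p = 1.15e-10; 0.76 ± 0.24 against monocytes, adjusted p = 0.00610); the difference between comparisons was not tested.

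The strongest loci of the smaller sets give the contrast. The strongest LXR and SMAD4 locus without reproducible RBPJ lay 1178 bp upstream of Lrp5 (chr19:3687584-3687899), a Wnt co-receptor gene, with 264 and 118 LXR tags and 264 and 212 SMAD4 tags. H3K27ac there was 30.3 and 45.8 CPM in Kupffer cells, against 13.9 and 15 CPM in RLM and 6.36 and 6.52 CPM in monocytes (log2 1.40 ± 0.25, adjusted p = 3.32e-06, and 2.57 ± 0.26, adjusted p = 1.36e-13). Tarbp2 had 182 and 293 tags and Slc15a3 317 and 130 tags as the leading LXR-only loci, against LXR medians of 199 and 84.5 over the 15, and neither was called in either comparison. Cacng4 and Rnf44 led the RBPJ-only loci. Cacng4 had 20.5 and 16.7 RBPJ tags, and its region, listed for monocytes, had too few tags to be tested.

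Id1, a BMP target that encodes an inhibitor of helix-loop-helix factors, was among the strongest SMAD4-only loci, with 257 and 140 tags. Its H3K27ac was 22.8 and 28.7 CPM in Kupffer cells, against 8.41 and 7.42 CPM in RLM and 3.88 and 3.8 CPM in monocytes, higher in both comparisons (1.71 ± 0.28, adjusted p = 5.08e-07, and 2.75 ± 0.29, adjusted p = 6.48e-13).

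Gene by gene, 2514 of 20404 protein-coding genes (12.3%) were nearest, within 100 kb, to a locus with 3 factors, and 2090 of them had 1 such locus. Lrp1, a scavenger and endocytic receptor gene, had the most, with 6. Tcf7l2, Lyn, Scarb1, Frmd4b, Plekho2, Cdkn2aipnl and Ndst1 had 5 each, and Prex1 and Abca1 had 4, as did other genes, Cebpb and Klf10 among them, with ties broken by the number of bound loci. Scarb1 encodes the HDL receptor, Tcf7l2 a transcription factor of the Wnt pathway and Lyn a Src-family kinase. Of the strongest such loci of these 10 genes, those of Tcf7l2, Frmd4b, Cdkn2aipnl and Ndst1 were called higher in Kupffer cells in both comparisons, Plekho2 and Abca1 against monocytes, Lyn against RLM, and Lrp1, Scarb1 and Prex1 in neither. Lrp1 passed against monocytes without Kupffer cell replicate 1 (1.10), and against RLM Scarb1 passed without RLM replicate 2 (1.33) and Prex1 without RLM replicate 1 (1.30). The Frmd4b call against RLM (1.05 ± 0.23) fell under 2-fold without Kupffer cell replicate 2 (0.80) and without RLM replicate 1 (0.94).

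Genes of the Kupffer cell identity list had many bound loci, and the share of those loci held by all 3 factors was near that of all loci. Of 30 such genes, 13 (43.3%) had a locus with 3 factors, against 12.3% of all genes, 13 had at most 2 at any locus, 3 had 1, and Ccdc148 had none. Their median was 6 bound loci per gene, against 1 for all genes, and 9.52% of their 168 loci held all 3 factors, against 11.2% of all loci within 100 kb of a start. The 16 Kupffer cell markers used above add Adgre1, Csf1r and C1qa to members of this list. Of them 10 (62.5%) had a locus with 3 factors, and 15.8% of their 95 loci held all 3. Clec4f, Timd4, Vsig4, Marco, Id3, Nr1h3, Cd163, Cd38, Paqr9, Cd207, Apoc1, Rgs1 and Il6ra were the 13. Spic, for the factor of iron-recycling macrophages, Cdh5 and Clec2i had at most 1 factor at any locus, and Cd5l and Slc40a1 at most 2 in 8 loci each.

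Of the 5 shared loci described for the list, the one with the largest difference in both comparisons was that of Paqr9, a gene of the progestin and adipoQ receptor family. Its shared locus (chr9:95572606-95572954) had 356 and 158 LXR tags, 104 and 115 SMAD4 tags and 12.5 and 12.3 RBPJ tags. H3K27ac was 46.0 and 69.4 CPM in Kupffer cells, against 1.45 and 1.22 CPM in RLM and 1.16 and 0.991 CPM in monocytes, log2 differences of 5.44 ± 0.34 (adjusted p = 1.78e-22) and 5.74 ± 0.33 (adjusted p = 3.97e-25). Both Kupffer cell libraries were far above the other 4, and the region was listed for Kupffer cells only. Apoc1, for an apolipoprotein, Cd38, an NAD-consuming ectoenzyme, and Cd163, the hemoglobin scavenger receptor, were called higher in both comparisons, by 2.14, 2.45 and 2.04 against RLM and 2.03, 3.65 and 2.00 against monocytes. Il6ra was called against RLM only (1.09 ± 0.26), and that call ended without Kupffer cell replicate 2 (0.71, adjusted p = 0.0523) and without RLM replicate 2 (just under 2-fold, adjusted p = 0.0193). With total tags as the library size the calls against RLM of Il6ra, Mertk, Cd300a and Frmd4b also fell under 2-fold, to between 0.90 and 0.93. At Spic the LXR-only locus had 45.1 and 52.9 CPM in Kupffer cells, against 19.1 and 19.4 CPM in RLM and 0.413 and 0.413 CPM in monocytes.

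**Figure D5:**
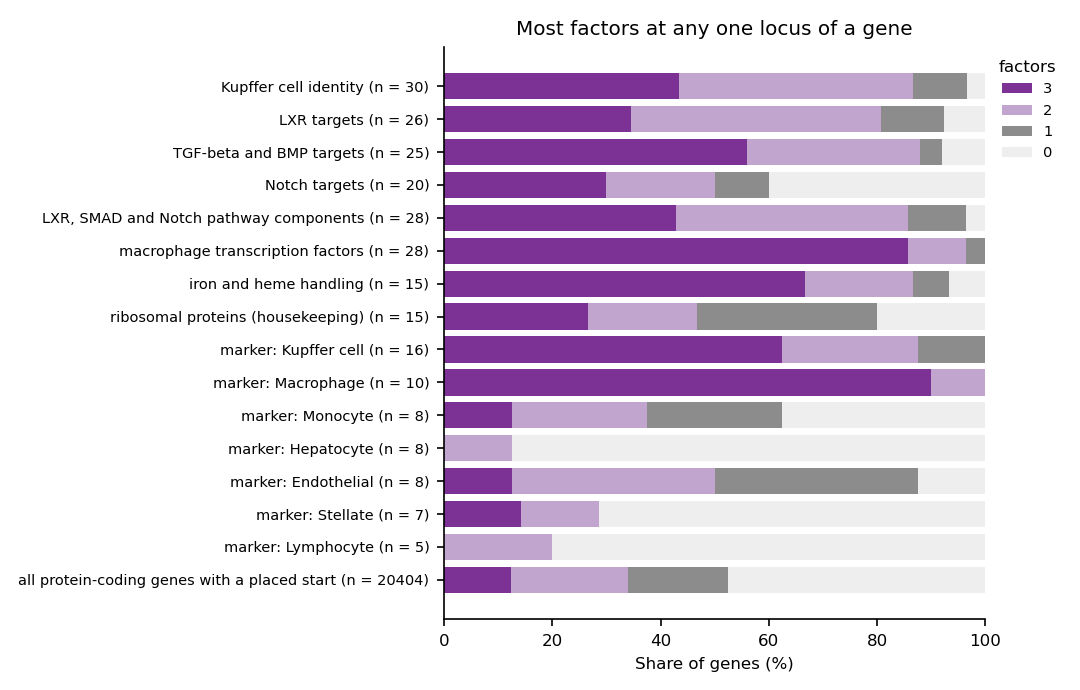
Share of the genes of each list (%) by the most factors found at any one locus nearest to the gene; n is the number of genes with a placed start. Loci with 3 factors were present for 85.7% of macrophage transcription factors and 43.3% of Kupffer cell identity genes, against 12.3% of all protein-coding genes.

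Among 26 LXR targets 9 (34.6%) had a shared locus, against 12.3% of all genes, and 12.0% of their loci held all 3 factors, near the 11.2% of all loci. Abca1, the cholesterol exporter, had 4 among 18 bound loci. Its strongest, 1048 bp into the gene (chr4:53158709-53158985), had 172 and 84.7 LXR, 83.4 and 96.4 SMAD4 and 16.8 and 13.4 RBPJ tags. H3K27ac was 67.0 and 94.2 CPM in Kupffer cells, against 77.3 and 85.6 CPM in RLM and 2.31 and 2.48 CPM in monocytes, so that Kupffer cells and RLM overlapped (-0.01 ± 0.20, adjusted p = 0.969) and both lay above monocytes (5.07 ± 0.26 for Kupffer cells, adjusted p = 3.98e-27). Pltp, the phospholipid transfer protein, was called in both comparisons (2.33 ± 0.27 and 3.03 ± 0.28), and Tlr4 against monocytes only (1.42 ± 0.23). Mertk, a receptor for apoptotic cells, had 44.6 and 57.7 CPM in Kupffer cells, against 24.3 and 24.6 CPM in RLM and 1.24 and 1.65 CPM in monocytes (1.07 ± 0.23 and 5.14 ± 0.30), the first falling to 0.88 without Kupffer cell replicate 2. Abcg1, Apoe, Srebf1, Scd1 and Mylip had at most 2 factors at any locus, and Abcg5 and Apoc4 had none.

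TGF-beta and BMP targets had a shared locus in 14 of 25 genes (56.0%, against 12.3% of all genes), with 14.7% of their loci holding all 3, against 11.2% of all loci. Skil, a feedback inhibitor of SMADs, had by far the highest SMAD4 values of the named loci, at 946 and 848, with 112 and 33.6 LXR and 20.3 and 12.9 RBPJ tags (chr3:31094526-31094790, 400 bp upstream). Its H3K27ac was 82.6 and 75.7 CPM in Kupffer cells, against 132 and 116 CPM in RLM and 51.0 and 58.5 CPM in monocytes, under 2-fold in both comparisons (-0.65 ± 0.19 and 0.53 ± 0.19). Smad6, an inhibitory SMAD, Tgfbr1, a TGF-beta receptor, and Klf10 were called higher against monocytes (1.46, 1.49 and 1.56) and not against RLM (0.78, 0.54 and 0.64); Tgfbr1 passed against RLM without RLM replicate 2 (1.09). Tgif1 was not called, with 0.52 against RLM and 0.72 against monocytes, the second passing without Kupffer cell replicate 1 (1.02). Id1, Id2 and Smad7 had at most 2 factors at any locus.

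Of 20 Notch targets with a placed start 6 (30.0%) had a shared locus, against 12.3% of all genes, and 8 (40.0%) had no bound locus, against 47.5% of all genes, Hes5, Hey2, Nrarp, Dtx1 and Il2ra among them. Hes1, the classic Notch target, had 3 shared loci among 17. Its strongest (chr16:30064079-30064411, 1112 bp upstream) had 90.5 and 25.2 LXR, 210 and 149 SMAD4 and 14.6 and 14.0 RBPJ tags. H3K27ac was 57.3 and 63.3 CPM in Kupffer cells, against 62.1 and 51.5 CPM in RLM and 3.14 and 9.49 CPM in monocytes; Kupffer cells overlapped RLM (0.09 ± 0.24, adjusted p = 0.775) and lay above monocytes (3.25 ± 0.27, adjusted p = 1.58e-15). Cd300a was called in both comparisons (1.07 ± 0.24 and 1.65 ± 0.24), the first ending without RLM replicate 2 (0.87) or Kupffer cell replicate 2 (0.90). Myc reached 0.98 ± 0.32 against monocytes and passed 2-fold without Kupffer cell replicate 2 (1.05), without monocyte replicate 1 (1.02) and, just, without either RLM library (1.00 each). Notch2 and Nfkb2 were called in neither.

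Components of the 3 pathways had a shared locus in 12 of 28 genes (42.9%, against 12.3% of all genes), and 11.5% of their loci held all 3, against 11.2% of all loci. Rxra, the partner of LXR, had 1 among 13 bound loci, 53439 bp from its start, which the deposited annotation places in the 3′ UTR. H3K27ac there was 42.2 and 51.4 CPM in Kupffer cells, against 5.52 and 4.88 CPM in RLM and 1.41 and 1.73 CPM in monocytes (3.18 ± 0.28, adjusted p = 9.96e-16, and 4.89 ± 0.31, adjusted p = 8.99e-23). Nr1h3, for LXR-alpha, had 2 shared loci, the stronger at 41.5 and 55.5 CPM in Kupffer cells, against 21.8 and 21.3 CPM in RLM and 5.54 and 6.19 CPM in monocytes (1.17 ± 0.23 and 3.05 ± 0.26); without Kupffer cell replicate 2 the first fell to 0.96. Nr1h2, for LXR-beta, had 1 locus, of LXR and SMAD4, and was called lower than in monocytes (-1.07 ± 0.21), which ended without Kupffer cell replicate 1 (-0.73).

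Notch1 had a shared locus called higher in both comparisons (1.65 ± 0.30 and 1.30 ± 0.28). Rbpj, at its promoter, had 32.5 and 24.3 CPM in Kupffer cells, against 57.7 and 50.5 CPM in RLM and 27 and 31.7 CPM in monocytes; the difference from RLM was -0.93 ± 0.22 (adjusted p = 0.000247), short of 2-fold, and passed without Kupffer cell replicate 1 (-1.12) and without RLM replicate 2 (-1.01). Smad4 had 1 locus, of LXR and SMAD4, weak in both factors and called lower in both comparisons (-1.23 ± 0.26 and -1.26 ± 0.26), neither of which held without Kupffer cell replicate 2 (-0.76 and -0.80). The shared locus of Smad3, a TGF-beta SMAD, was called lower than in monocytes (-1.77 ± 0.27) and passed against RLM without RLM replicate 1 (-1.07). Smad5, a BMP SMAD, had an LXR-only locus called higher in both (2.92 ± 0.38 and 3.00 ± 0.37). Smad1 was called in neither comparison, nor was Spen, an RBPJ co-repressor (0.01 and 0.78).

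Of 28 macrophage transcription factors 24 (85.7%) had a shared locus, against 12.3% of all genes, with a median of 6.5 bound loci per gene, against 1. Per locus 17.4% held all 3 factors, against 11.2% of all loci and 17.2% of the loci of ribosomal protein genes. The Spi1 locus, 11989 bp upstream of the gene for PU.1, had 102 and 44.9 LXR, 79.2 and 102 SMAD4 and 14.6 and 9.84 RBPJ tags. Its H3K27ac was 51.6 and 66.0 CPM in Kupffer cells, against 18.4 and 26.6 CPM in RLM and 15.8 and 16.0 CPM in monocytes (1.38 ± 0.23, adjusted p = 4.57e-07, and 1.89 ± 0.23, adjusted p = 4.74e-11). Irf5 was called in neither. Irf7 and Klf4 were among the 4 without a shared locus.

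Iron and heme genes had a shared locus in 10 of 15 (66.7%, against 12.3% of all genes), with 18 of 70 loci (25.7%, against 11.2% of all loci) holding all 3 factors, 6 of them at Lrp1. Fth1 and Ftl1, for the ferritin chains, were called higher against monocytes (2.72 ± 0.27 and 1.47 ± 0.23) and not against RLM (0.76 and -0.59), and Hmox1, for heme oxygenase, was called in both (1.27 ± 0.26 and 1.59 ± 0.26). Ribosomal protein genes, taken as a housekeeping list, had a shared locus in 4 of 15 (26.7%, against 12.3% of all genes). Per locus 17.2% of 29 held all 3 factors, against 11.2% of all loci. Of macrophage markers 9 of 10 (90.0%) had a shared locus, and 27.3% of their 44 loci held all 3 factors. Shares near the 12.3% of all genes were found for monocyte (1 of 8, 12.5%, Fn1), endothelial (1 of 8, 12.5%, Pecam1) and stellate cell markers (1 of 7, 14.3%, Hgf). Per locus these 3 lists had 8.33% of 12, 13.3% of 15 and 20.0% of 5, against 11.2%. Of 8 hepatocyte and 5 lymphocyte markers 0 had a shared locus, against 12.3% of all genes. These lists had only 4 and 2 bound loci, too few to set against the 11.2% of all loci. The lists share genes and were chosen with earlier results of these data known.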

How the data were processed

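The authors deposited, per library, a HOMER peak list with a normalized tag count per peak (a signal: tags per 10 M) and a fold over input (a ratio), and for H3K27ac a table of raw tag counts per 2000-bp region, not normalized, for Kupffer cells, RLM and monocytes. Peaks had to pass, per the file headers, a false discovery rate of 0.001, a Poisson p of 0.0001 and 4-fold over both the matched input and the surrounding 10000 bp. Bowtie2, HOMER and the build mm10 are listed in the submitters' processing notes. The H3K27ac table of BMDM was not used here.

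Overlapping peaks of both replicates were joined to intervals and overlapping intervals to loci. Where a replicate had several peaks in an interval, the deposited values are those of the strongest. Each locus took the overlapping H3K27ac region with the nearest centre and the nearest protein-coding start, from RefSeq promoters (17492 genes) or the deposited distances to starts (2912). Promoter motifs were searched by letters on both strands.

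Counts were tested in R 4.3.3 with edgeR 4.0.16 (quasi-likelihood, robust, TMM, filterByExpr), 6 libraries in 1 fit, 80982 of 84647 regions tested, Benjamini-Hochberg adjustment over all of them. CPM are over the TMM-scaled total. Both the locus builder and the test were tested on simulated data. Alternatives were DESeq2 1.42.0, other library scalings, no filter, other overlap and fold rules, and leaving out each library. Other tools were Python 3.11.15 and pandas 2.3.3.

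Named loci are the 15 shared loci with the highest score (the lowest, over the factors, of the percentile of its tag count in its list), the 2 best of each other set, up to 5 genes per list, the 10 genes with the most shared loci (ties by bound loci, then by name), and 13 genes of the factors and their partners; predicted symbols were left out. Other genes are named only as members of a list. The members, lists and tests were chosen with earlier results of these data known. The labels give no number of animals per library. An absent interval is not shown to be an unbound site.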

Additional observations from a re-analysis of the deposited data

How the results depend on the processing

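Counts of called regions at loci with 3 factors stayed within 1.5 times under DESeq2, other size factors, no filter, a fit of the 2 groups alone and shared centres within 100 bp, except the regions lower than in RLM with total tags as the library size (174 against 114). Those 174 were 5.28%, where 15.9% of all tested regions were lower. With DESeq2 34.7% were higher than in monocytes and 35.8% higher than in RLM, where 22.7% and 20.0% of all tested regions were. Same-numbered H3K27ac libraries did not deviate together (correlations of -0.009, 0.049 and -0.022), so the numbers do not pair them. With the replicate block 1197 regions were higher (36.3%) and 297 lower (9.01%) than in monocytes, where 24.8% and 17.2% of all tested regions were. In the comparison with RLM 1236 were higher (37.5%) and 114 lower (3.46%), where 22.1% and 13.2% of all were. Leaving out an H3K27ac library leaves 1 library in a group, so the numbers of regions at shared loci called in those fits are not given. The number of shared loci fell to 316 at 8-fold over input and to 1108 with 5000 intervals per factor, was 3419 to 5883 with 1 library of a factor left out, and was 7145 with LXR replicate 1, SMAD4 replicate 1 and RBPJ replicate 2 alone, which leaves out the shared input and the input of another diet. The H3K27ac ratio of loci with 3 factors to loci with 1, 2.04, was 1.87 with at least 50% of the shorter interval overlapping, 1.78 with centres within 100 bp, 1.63 with 5000 intervals per factor, 2.27 with the 3 single libraries, 2.67 for distal and 1.26 for proximal loci, and 1.97 to 2.66 with 1 library left out. Within 1 kb of a start lay 35.4% of shared loci. At named loci 33 of 1800 recomputed differences lost their call, 31 gained one and 0 reversed. Only a called difference can lose its call or reverse, and only an uncalled one can gain one. The 1800 hold both kinds, so they are not the base of a rate of loss or gain. The causes were not tested, beyond that fewer peaks pass a stricter fold and more peaks pass where 1 library need not match another.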

Other observations

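Among loci of LXR and SMAD4 beyond 3 kb of a gene start, median H3K27ac in Kupffer cells was 13.4 and 15.4 CPM with an RBPJ peak in both libraries, 11.4 and 12.9 CPM with one in 1 library, and 9.54 and 10.3 CPM with one in neither. In monocytes the medians at the same loci were 5.87 and 5.78 CPM, 4.46 and 4.29 CPM, and 3.14 and 2.81 CPM in the same order. LXR and SMAD4 counts fell along with RBPJ at these loci. Their medians in replicate 1 were 65.6, 51.1 and 41.3 for LXR and 42.2, 31.1 and 24.3 for SMAD4. The part of each factor in the acetylation was not tested. The replicates of SMAD4 and RBPJ had a similar balance at both positions: replicate 2 was the higher one at 78.9% of proximal and 80.7% of distal SMAD4 loci, and at 25.1% of proximal and 28.7% of distal RBPJ loci.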
